A study of Mus musculus with 35 samples.

Results

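The 3 genes described here, Myc, Mycn and Mycl, encode the MYC family of transcription factors. They were taken by name from 21631 protein-coding genes on chromosomes 1 to 19 and X, together with every peak over each gene and within 200 kb to each side. In 22 peak lists these windows held 925 of 902871 peaks. MYC proteins bind DNA as dimers with MAX and raise transcription of genes for ribosome assembly, metabolism and cell division. MYC is itself part of the factor cassette used to turn fibroblasts into pluripotent cells, and embryonic stem cells (ESC) are known to transcribe both Myc and Mycn. Acetylation of lysine 27 of histone H3 (H3K27ac) marks active promoters and enhancers, and KLF4 is a zinc-finger factor of the same cassette.

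H3K27ac was mapped by chromatin immunoprecipitation and sequencing in 12 libraries, and KLF4 in 10. Mouse embryonic fibroblasts (MEF) came from a mouse with a doxycycline-driven cassette of Oct4, Klf4, Sox2 and Myc (OKSM) at Col1a1. The mouse also held the M2rtTA activator at Rosa26. Cells of day 3, day 6 and day 9 were induced with doxycycline and ascorbic acid in ESC medium. The MEF libraries carry no day of induction and were taken as the fibroblast start. Day 3 cells were a bulk population, while day 6 and day 9 cells had been sorted for SSEA1, so the later stages hold only the sorted share of the culture. ESC were the V6.5 line, which the labels describe apart from the cassette mouse, grown with serum and LIF on irradiated feeder cells, and a further KLF4 pair was grown with the MEK and GSK3 inhibitors called 2i. The H3K27ac libraries numbered 2 for MEF, 3 for day 3, 3 for day 6, 2 for day 9 and 2 for ESC, and KLF4 was mapped in 2 libraries of every group except MEF. The design text calls replicates biological without naming the culture or mouse behind each library. The libraries carry batch codes in their titles: DG-3458 holds every H3K27ac library of MEF and ESC, EA-3702 both of day 9, and day 3 and day 6 have libraries of either. The KLF4 ESC libraries came from batches that hold no other stage.

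Lists ran from 17493 peaks on day 6 to 88347 in MEF for H3K27ac, and from 21129 to 34640 for KLF4. Sequencing depth is unknown, and a place without a peak is not a place without signal. Of 10 fibroblast marker genes, 10 carried an H3K27ac peak in MEF, 9 on day 3, 4 on day 6, 5 on day 9 and 4 in ESC. Of 10 ESC marker genes, 1, 3, 4, 9 and 10 did so in the same order.

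In mm10 coordinates Myc lies at chr15:61985341-61990361, Mycn at chr12:12936093-12941836 and Mycl at chr4:122995588-123002490. No other protein-coding gene lies within 200 kb of Myc or of Mycn, and 9 lie in or reach into the Mycl window. Pvt1, a long noncoding RNA gene, begins 52.6 kb after the lower-coordinate end of Myc and runs past the edge of that window. Distances below are counted from the lower-coordinate end of each gene.

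Promoters of 2 of the 3 genes, Mycn and Mycl, were found in the RefSeq promoter table, on the GRCm38.p6 build. Both promoters found are shown, and each held a KLF4 peak in 9 of 10 libraries, with the gap in a different library. Capitals mark CACCC, the core of KLF binding sites, or its reverse complement GGGTG, on either strand. The Mycn promoter is at chr12:12941787-12942086 on the minus strand, so that its start site is at 5743 bp on the scale used here, and the Mycl promoter is at chr4:122995681-122995980 on the plus strand.
Mycn: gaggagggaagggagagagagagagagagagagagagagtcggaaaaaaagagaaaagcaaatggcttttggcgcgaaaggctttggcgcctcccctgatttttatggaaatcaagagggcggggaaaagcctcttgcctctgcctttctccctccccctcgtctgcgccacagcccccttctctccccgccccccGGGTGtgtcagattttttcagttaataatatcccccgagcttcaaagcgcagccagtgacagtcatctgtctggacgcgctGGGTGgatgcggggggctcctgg
Mycl: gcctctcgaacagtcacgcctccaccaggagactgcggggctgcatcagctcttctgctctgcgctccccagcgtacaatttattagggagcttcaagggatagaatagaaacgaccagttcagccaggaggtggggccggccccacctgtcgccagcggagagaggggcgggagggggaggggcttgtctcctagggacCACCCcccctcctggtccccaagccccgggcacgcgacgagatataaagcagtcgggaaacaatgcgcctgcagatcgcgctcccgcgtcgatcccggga

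CACCC occurred 2 times in the Mycn promoter and 1 time in that of Mycl, and 57.5% of 32851 promoters of the same length held it. The longer KLF motif GGGNGNGG occurred 4 times in each, both strands counted and overlapping matches included, against 49.5% of promoters with any match. The E-box CACGTG, the site of MYC and MAX dimers, was in neither window and in 7.15% of all promoters. Over the Mycn promoter, KLF4 peaks were in both libraries of day 3, day 6, day 9 and ESC in 2i, and in 1 of 2 ESC libraries, while H3K27ac peaks were in 0 of 2 MEF and 0 of 3 day 3 libraries and in all 7 libraries of day 6, day 9 and ESC. Over the Mycl promoter, the KLF4 gap was 1 of 2 day 3 libraries, and H3K27ac peaks were in 0 of 2 MEF, 0 of 3 day 3, 2 of 3 day 6, 2 of 2 day 9 and 2 of 2 ESC libraries. The windows are narrow, and on day 3 an H3K27ac peak began just beyond the window, at 6025 bp by Mycn in the EA-3702 list and at 407 and 497 bp by Mycl in the first DG-3458 and the EA-3702 list.

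**Figure D1:**
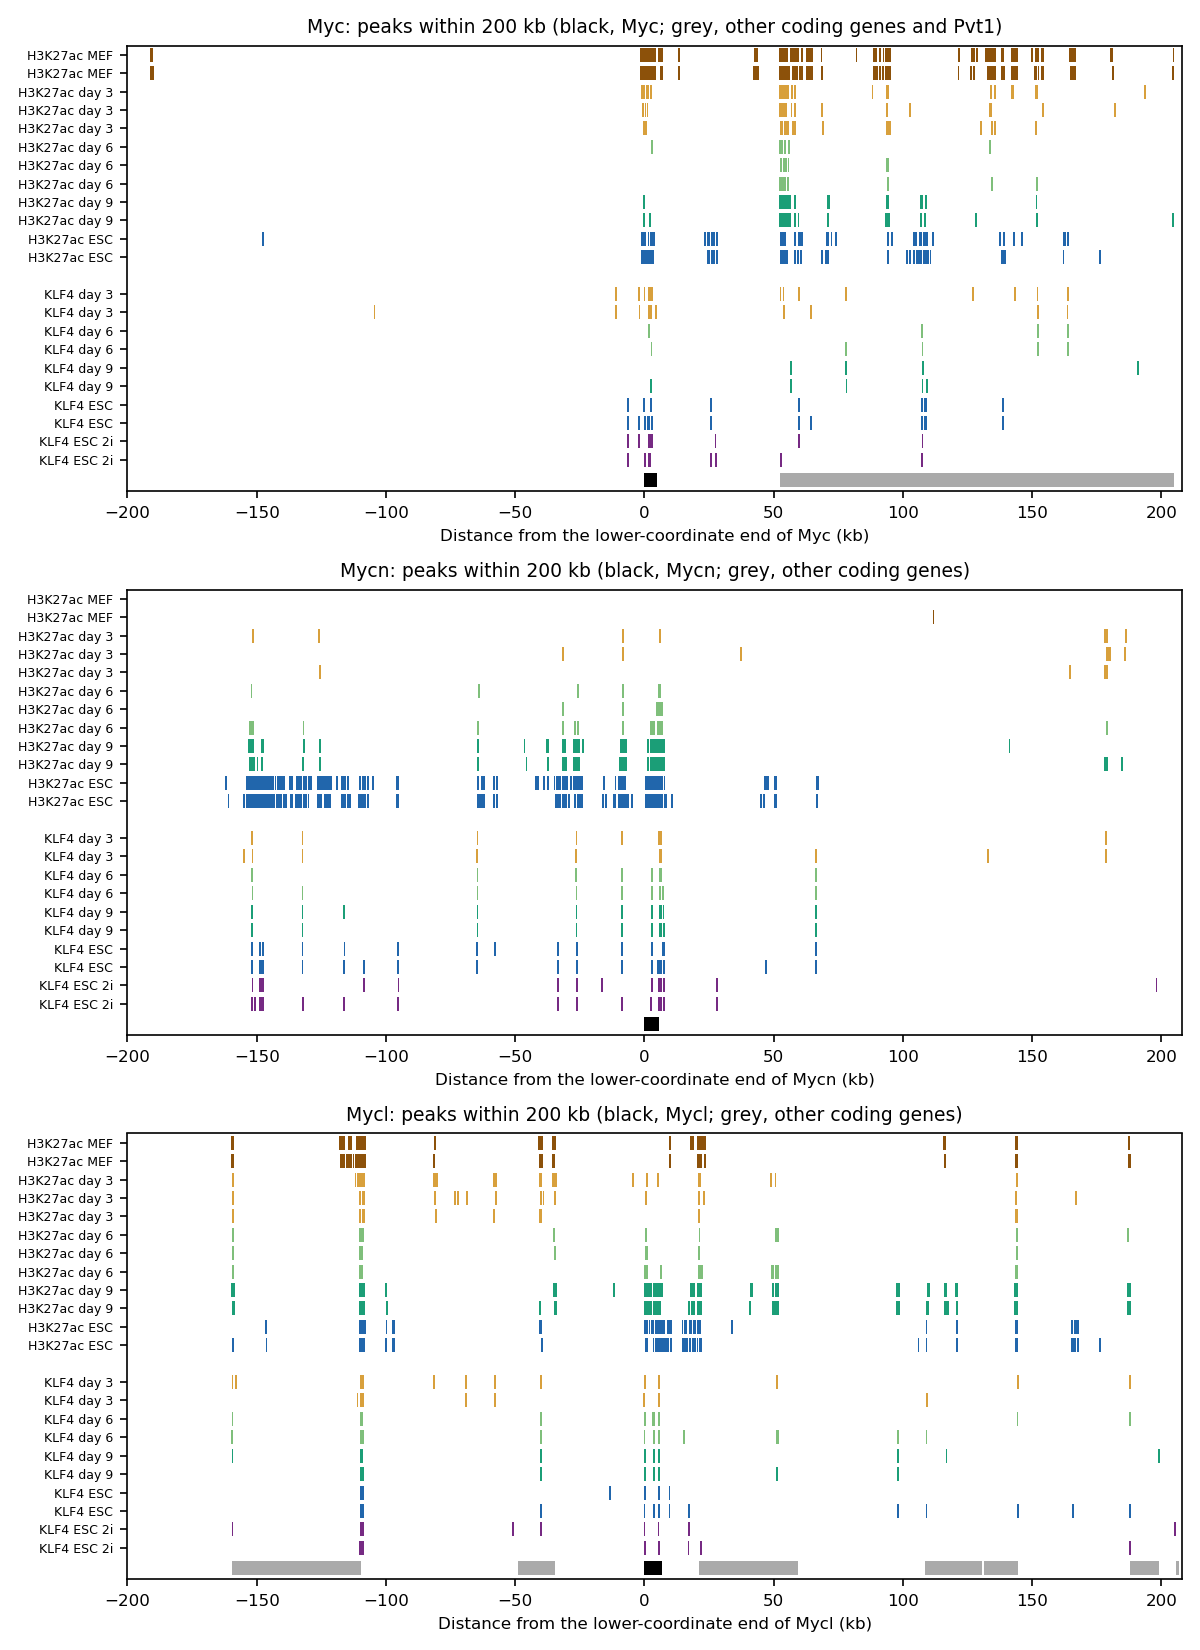
Peaks in the 200 kb to each side of Myc, Mycn and Mycl. Each row is a library, each bar a peak (drawn at least 700 bp wide), and the x axis is the distance in kb from the lower-coordinate end of the gene, with the gene in black and other coding genes and Pvt1 in grey. The Mycn window held 0 and 1 H3K27ac peaks in MEF and 58 and 54 in ESC.

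Mycn had the largest difference of the 3 genes between fibroblasts and ESC, although differences between the genes were not tested. The number of H3K27ac peaks in its window was 0 and 1 in the MEF libraries, 7, 7 and 4 on day 3, 6, 6 and 12 on day 6, 15 and 18 on day 9, and 58 and 54 in ESC. To set lists of different lengths side by side, the peak number was divided by the length of the list, which gave 0 and 0.113 peaks per 10000 peaks in MEF, 1.50, 1.38 and 0.965 on day 3, 2.89, 3.43 and 5.34 on day 6, 3.41 and 3.96 on day 9, and 7.08 and 6.65 in ESC. MEF, day 3 and ESC libraries did not overlap each other or any other stage on this scale, while the day 6 and day 9 libraries did. Within batch DG-3458 alone the values of MEF, day 3, day 6 and ESC followed each other upward in that order with no overlap. The highest day 6 value belonged to batch EA-3702, which had 1.50 on day 3, 5.34 on day 6, and 3.41 and 3.96 on day 9. In that batch both day 9 values thus lay below the day 6 value.

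On the log2 scale with 0.5 added, the Mycn density was higher in ESC than in MEF by 3.73 ± 0.257 (SE, 2 libraries against 2, limma adjusted p = 4.5e-07), a difference larger than that of 99.96% of 20201 genes tested. The size depends on the pseudocount, since a MEF library had no peak, and it was 5.57 with 0.1 added and 2.90 with 1 added. Step by step, Mycn rose from MEF to day 3 by 1.67 ± 0.234 (limma adjusted p = 0.00015) and from day 3 to day 6 by 1.27 ± 0.210 (limma adjusted p = 0.00076). The size of the MEF to day 3 step also depends on the pseudocount, since it uses the same MEF libraries. From day 6 to day 9 the difference was -0.03 ± 0.234 with an interval of -0.54 to 0.48. Day 6 pools batches DG-3458 and EA-3702, while both day 9 libraries are of EA-3702. This measure counts peaks and not their width. The peaks of the window covered 2.56, 2.035 and 9.79 kb on day 6 and 21.4 and 21.9 kb on day 9. The whole lists covered 10.5, 9.21 and 19.9 Mb on day 6 and 48.9 and 49.5 Mb on day 9. From day 9 to ESC the density rose by 0.82 ± 0.257 (limma adjusted p = 0.029), and this call was lost without any 1 of the 4 libraries compared, at values of 0.72 and 0.91 without a day 9 library and 0.78 and 0.86 without an ESC library. It was also lost with a pseudocount of 0.1 (0.88), with equal numbers of top peaks (0.58) and in windows of 100 kb (0.69) and 50 kb (0.43). The MEF to day 3 call was lost in windows of 100 kb and of 50 kb, at a difference of 0.67 in each, and with equal numbers of top-scoring peaks, at 0.94.

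Mycl, which encodes the family member first found in small cell lung cancer, had a smaller difference. Its window held 19 and 16 H3K27ac peaks in MEF, 18, 16 and 10 on day 3, 11, 7 and 12 on day 6, 20 and 22 on day 9, and 30 and 33 in ESC. Per 10000 peaks this came to 2.16 and 1.81 in MEF, 3.85, 3.15 and 2.41 on day 3, 5.29, 4.00 and 5.34 on day 6, 4.55 and 4.83 on day 9, and 3.66 and 4.06 in ESC. The MEF libraries lay below every other library, and the ESC libraries overlapped both day 3 and day 6. The density was higher in ESC than in MEF by 0.81 ± 0.195 (limma adjusted p = 0.0032), but with equal numbers of top-scoring peaks per list the difference was 0.23 and was not called. Mycl rose from MEF to day 3 by 0.53 ± 0.178 (limma adjusted p = 0.026) and from day 3 to day 6 by 0.57 ± 0.159 (limma adjusted p = 0.011). The first of these calls was lost without either MEF library (0.63 and 0.43), without the EA-3702 day 3 library (0.39), without the first DG-3458 day 3 library (0.52), in windows of 50 kb (0.46) and with the replicate block (0.43), and it turned to -0.04 with equal numbers of top peaks. The day 3 to day 6 call was lost in windows of 100 kb (0.24) and of 50 kb (0.76). The later differences were -0.04 ± 0.178 from day 6 to day 9 and -0.25 ± 0.195 from day 9 to ESC, neither of them called, but by covered length they were 0.42 and -0.56 and both were called.

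At Myc the MEF and ESC lists held about as many peaks, with fewer on the days between. Its window held 41 and 37 H3K27ac peaks in MEF, 15, 13 and 15 on day 3, 5, 6 and 5 on day 6, 9 and 13 on day 9, and 37 and 36 in ESC. Per 10000 peaks the values were 4.66 and 4.19 in MEF, 3.21, 2.56 and 3.62 on day 3, 2.41, 3.43 and 2.23 on day 6, 2.05 and 2.86 on day 9, and 4.51 and 4.43 in ESC. All MEF and ESC libraries lay above all day 3, day 6 and day 9 libraries, which overlapped one another. The ESC minus MEF difference was 0.02 ± 0.209, with a 95% interval of -0.44 to 0.47. When covered length took the place of peak number, the difference was -0.53 and was called lower in ESC. Myc differed from MEF to day 3 by -0.45 ± 0.191, which missed the threshold (limma adjusted p = 0.071), and it was called without the second DG-3458 or the EA-3702 day 6 library at the same value, by covered length at -0.70 and with equal numbers of top peaks at -1.54. From day 3 to day 6 the difference was -0.20 ± 0.170 and from day 6 to day 9 -0.11 ± 0.191, the latter called at -0.38 by covered length and at -0.79 in windows of 50 kb. The density rose from day 9 to ESC by 0.77 ± 0.209 (limma adjusted p = 0.015). That call was lost without the first day 9 library (0.57) or either ESC library (0.75 and 0.78), with batch as a block (0.64) or the replicate block (0.84), with equal numbers of top peaks (0.60), with a q-value limit of 0.01 (0.81) and in windows of 100 kb (0.75). The day 9 and ESC libraries share no batch.

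The calls were set beside those over all genes. The median difference over all genes was 0.33 for ESC minus MEF, 0.20 for day 3 minus MEF, 0.22 for day 6 minus day 3, -0.08 for day 9 minus day 6 and -0.03 for ESC minus day 9. Of the 3 members, 2 were called higher in ESC than in MEF, where 41.9% of genes were called higher and 18.3% lower. On day 3 against MEF 2 of 3 were called higher, where 32.3% of genes were, and on day 6 against day 3 again 2 of 3, where 32.8% were. On day 9 against day 6 limma called 0 of 3, and 0 of 3 had an unadjusted p under 0.05, where 15.4% of genes were called higher and 21.7% lower. In ESC against day 9, 2 of 3 were called higher, where 15.9% of genes were. In the limma F test over the 5 stages all 3 members were called, Mycn with F = 67.8 (adjusted p = 1.1e-06), Mycl with 12.2 (adjusted p = 0.00062) and Myc with 6.29 (adjusted p = 0.0072), where 89.0% of genes were called. The F call of Myc was lost in windows of 100 kb (F = 1.65) and with the replicate block after the day 6 numbers were exchanged (F = 3.49). With so many genes called, a call in itself sets no member apart.

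**Figure D2:**
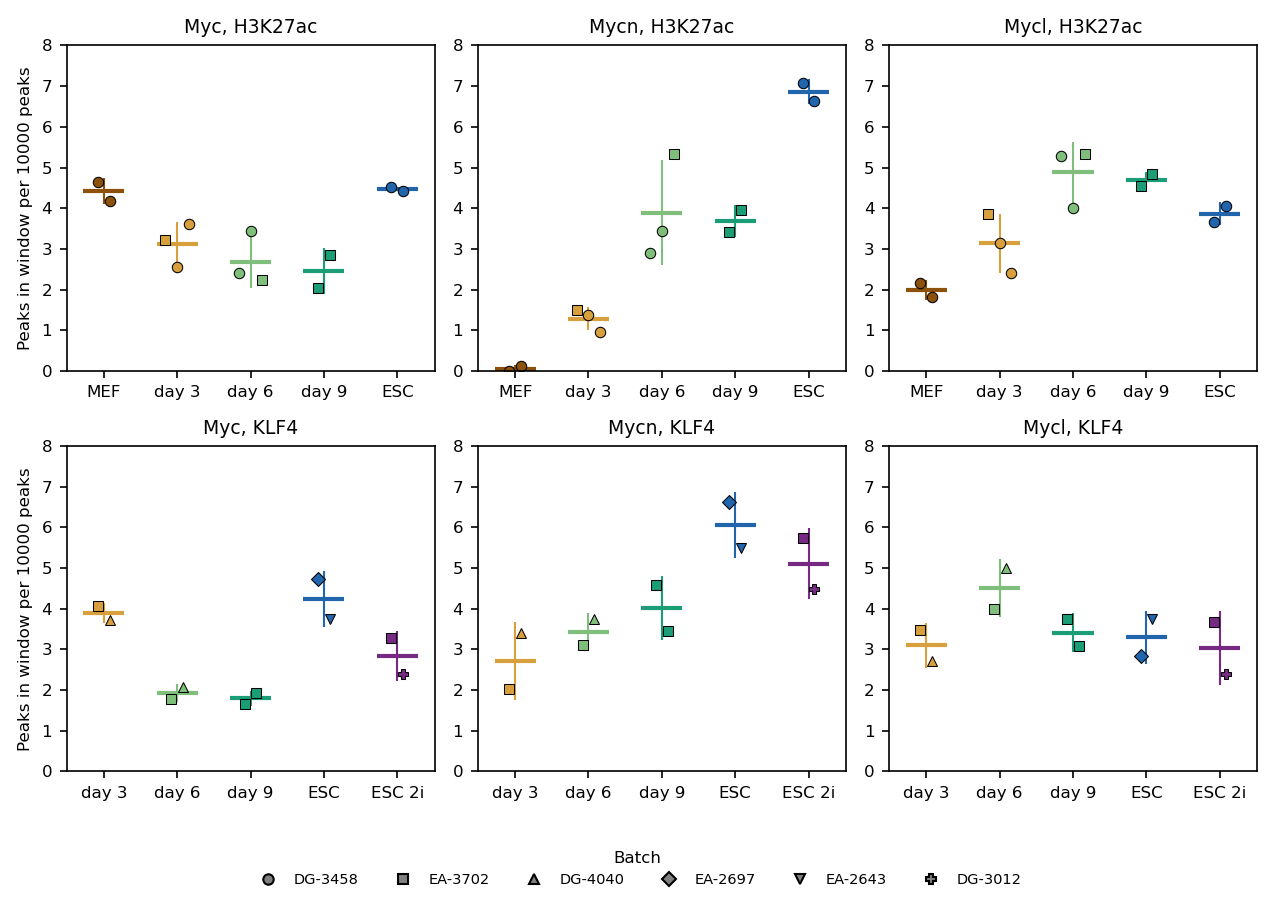
Peaks in the 200 kb window of each gene per 10000 peaks of the list, by stage, for H3K27ac (top) and KLF4 (bottom). Points are libraries with the batch as the symbol, horizontal bars are stage means and vertical lines 1 SD on each side. For H3K27ac, Mycn goes from 0 and 0.113 in MEF to 7.08 and 6.65 in ESC, while Myc starts and ends between 4.19 and 4.66.

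**Figure D3:**
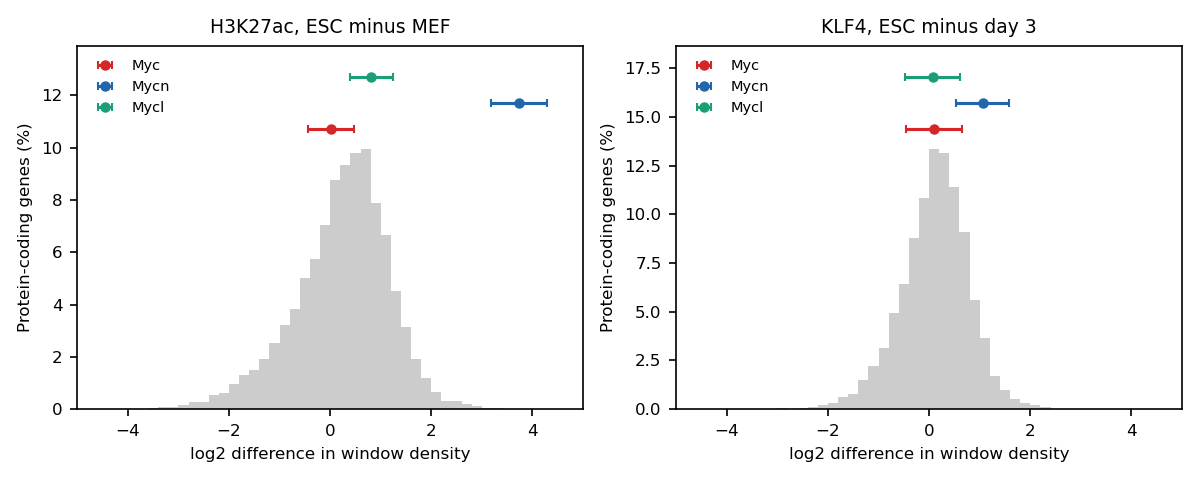
Differences in window density on the log2 scale over all protein-coding genes tested (grey, percent of genes per bin of 0.2), with the 3 members as points with 95% intervals, placed above the bars at arbitrary heights. In the H3K27ac panel (ESC minus MEF) Mycn, at 3.73, lies beyond the body of the distribution, and Myc, at 0.02, lies below the median of 0.33.

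Over the genes themselves, each with 2.5 kb to each side, the 3 members also differed. In MEF, Myc had 5 and 4 H3K27ac peaks, of which the widest ran from -1757 to 3818 bp in the first library, 5576 bp wide, and from -1784 to 3963 bp in the second, 5748 bp wide. The authors' fold enrichment of these peaks was 21.1 and 17.6, and the −log10 of their q-value was 63.6 and 49.0. On day 3 the place held 3, 3 and 2 narrower peaks with a highest fold of 5.46, 3.91 and 4.13. On day 6 only 1 of 3 libraries had a peak, with a fold of 2.79, and on day 9 the libraries had 1 and 2 with a highest fold of 2.40 and 2.96. In ESC the gene was covered by 7 and 9 separate small peaks, with a highest fold of 6.27 and 4.36. The wide MEF peak thus had no counterpart of its width in any later list, the widest being 1856 bp on day 3 and 700 bp in ESC.

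Mycn and Mycl differed from Myc in having no peak in MEF. Over Mycn the MEF lists had no H3K27ac peak, day 3 had 1 weak peak in 1 of 3 libraries (fold 2.37), and all 3 day 6 libraries had peaks about the start site, with a highest fold of 5.40, 3.93 and 7.37. On day 9 the peaks were 6070 and 6020 bp wide with a fold of 15.2 and 18.6, and in ESC 6772 and 6810 bp wide with a fold of 18.7 and 18.3. Over Mycl there was no peak in MEF, a weak peak in 2 of 3 day 3 libraries (highest fold 2.97 and 2.99), peaks in 3 of 3 day 6 libraries (4.73, 4.58 and 5.29), and peaks with a highest fold of 8.88 and 10.1 on day 9 and 11.2 and 8.84 in ESC. Both genes therefore carried acetylation over the gene in every sorted or pluripotent library and in no fibroblast library. A peak in at least 2 libraries was present over 1 of the 3 members in MEF, where 66.3% of all coding genes had one, over 2 on day 3 (57.5% of genes), over 2 on day 6 (49.3%), over 3 on day 9 (63.5%) and over 3 in ESC (65.9%). These shares of all genes are so high that presence in ESC sets none of the 3 apart.

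**Figure D4:**
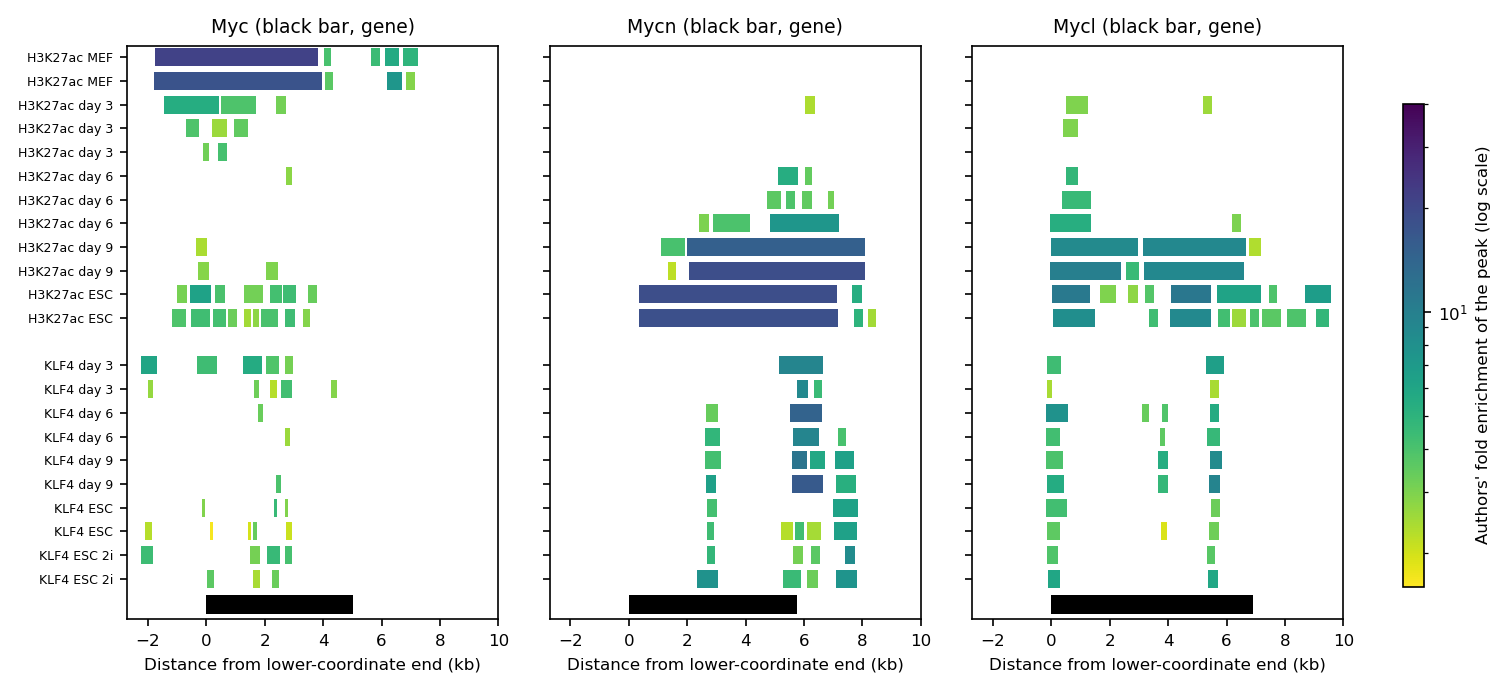
Peaks over the 3 genes with 2.5 kb to each side, 1 row per library, against the distance in kb from the lower-coordinate end, coloured by the authors' fold enrichment on a log scale. The wide Myc peaks of MEF (fold 21.1 and 17.6) and the wide Mycn peaks of day 9 (15.2 and 18.6) and ESC (18.7 and 18.3) stand out. KLF4 peaks at the lower-coordinate end of Mycl and inside it near 5.60 kb are seen in all 10 libraries.

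KLF4 peaks lay over all 3 genes from day 3 on, the earliest KLF4 libraries. With a peak in at least 2 libraries, the members counted 3 of 3 on day 3 (41.6% of all coding genes), 3 on day 6 (39.7%), 2 on day 9 (43.1%), 3 in ESC (40.5%) and 3 in ESC in 2i (44.0%), and the gap on day 9 was Myc. At the Mycn start site a region of 1549 bp, centred 5.93 kb from the lower end, held a peak in 9 of 10 libraries and was missing in the EA-2697 ESC list. Its strongest peaks had a fold of 9.24 and 8.79 on day 3, 14.6 and 9.23 on day 6 and 11.6 and 16.3 on day 9, 4.28 in the ESC library that had it, and 3.65 and 4.50 in 2i. Each fold is the value of a peak in its own list and was not tested between lists. A second region, centred 7.42 kb from the lower end and beyond the start site, had no peak on day 3, 1 of 2 libraries on day 6, and both on day 9, in ESC and in 2i, at a fold of 4.10 to 8.43. Another region, inside the gene at 2.75 kb, had no peak on day 3 and a peak in all 8 later libraries.

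Over Mycl, KLF4 regions centred at 0.187 kb, at its lower-coordinate end, and at 5.60 kb, inside the gene, each held a peak in all 10 libraries. Their folds were 2.45 to 7.72 and 2.44 to 9.32. Over Myc the regions within 2.5 kb had low scores, with a mean percentile of the authors' score within a list of 30.0 to 48.9, against 67.8 to 85.3 for Mycn and 39.5 to 66.1 for Mycl. Each day 3 library had 5 KLF4 peaks over Myc, of which 4 lay over the gene, and the highest fold was 6.04 and 4.24. Day 6 libraries had 1 each, at 3.35 and 2.59, day 9 libraries 0 and 1, at 3.97, and ESC libraries 3 and 5, at 4.59 and 3.36. In 2i there were 4 and 3, at 4.56 and 3.59.

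In cells of the cassette mouse, peaks over the exons of Myc can hold reads from the cassette as well as from the gene. In a peak list these sources cannot be told apart. The labels describe the ESC apart from that mouse. The day 3 KLF4 region that lies before the gene, from -2252 to -1685 bp, had a peak in both day 3 libraries and in 1 of 2 lists each of ESC and ESC in 2i. On day 3 the other cassette genes also had KLF4 peaks, with 4 and 4 at Pou5f1 (the gene for OCT4), 4 and 2 at Klf4, and 2 and 3 at Sox2. Counted with the same flanks, H3K27ac peaks at Pou5f1 numbered 1 to 2 in the MEF lists, with a highest fold of 3.64 to 5.57, and 1 in each day 3 list, at 2.75 to 6.33. Sox2 had 1 in each MEF list, at 3.16 to 3.76, and none on day 3 or day 6, and the highest fold at Klf4 was 51.2 to 59.7 in MEF and 13.6 to 15.4 on day 3. Within Pou5f1 itself, without flanks, 0 of 2 MEF, 3 of 3 day 3 and 0 of 3 day 6 lists had an H3K27ac peak. KLF4 peaks on day 6 numbered 1 to 2 at Pou5f1, 1 to 3 at Klf4 and 0 at Sox2. The part of cassette DNA in these peaks was not tested.

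In the wider windows Mycn had a higher KLF4 density in ESC than on day 3, and Myc had its lowest KLF4 peak numbers on days 6 and 9. Myc had 14 and 11 KLF4 peaks on day 3, 4 and 5 on day 6, 4 and 5 on day 9, 10 and 13 in ESC, and 8 and 8 in 2i. Mycn had 7 and 10, 7 and 9, 11 and 9, 14 and 19, and 14 and 15 at the same stages. Mycl had 12 and 8, 9 and 12, 9 and 8, 6 and 13, and 9 and 8. Relative to list length, the lowest Mycn value in ESC was 5.48 per 10000 and the highest on day 3 was 3.39, without overlap, and the day 6 and day 9 Myc values, 1.67 to 2.09, lay below all others of that gene.

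The KLF4 density of Mycn was higher in ESC than on day 3 by 1.06 ± 0.254 (limma adjusted p = 0.0050), and the call was lost without the EA-3702 day 3 library (0.75) or the EA-2697 ESC library (0.93). For Myc that difference was 0.10 ± 0.270 and for Mycl 0.07 ± 0.265. Thus 1 of 3 members was called higher, where 16.1% of genes were called higher and 7.18% lower. From day 3 to day 6, 0 of 3 were called by limma, where 0.528% of genes were called higher and 0.155% lower. Myc had the only unadjusted p under 0.05 there, at a difference of -0.86 ± 0.270 (limma adjusted p = 0.13), and in windows of 100 kb it was called lower, at -1.56. From day 9 to ESC, Myc rose by 1.04 ± 0.270 (limma adjusted p = 0.015), where 7.60% of genes were called higher. This call was lost without either day 9 library (0.96 and 1.12) or the EA-2697 ESC library (0.89) and with a q-value limit of 0.01 (2.15), and Mycn differed by 0.54 ± 0.254 (limma adjusted p = 0.16).

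From day 6 to day 9, 0 of 3 members were called and 0 had an unadjusted p under 0.05, where 0.00518% of genes were called higher. Between ESC in 2i and in serum, 0 of 3 were called and 0 had an unadjusted p under 0.05, where 0.0207% of genes were called higher and 0.104% lower. The 2i differences were -0.51 for Myc with a 95% interval of -1.07 to 0.04, -0.23 for Mycn (-0.75 to 0.30) and -0.12 for Mycl (-0.66 to 0.43). The F test over the 5 KLF4 stages called Myc (F = 6.24, limma adjusted p = 0.0084) and Mycn (F = 5.35, limma adjusted p = 0.015) and not Mycl (F = 1.20, limma adjusted p = 0.43), where 33.2% of genes were called. The Mycn call was lost without the EA-3702 day 3 library (F = 3.53) or the EA-2697 ESC library (F = 3.57) and with no filter (F = 5.59), and a q-value limit of 0.01 lost both the Mycn call (F = 3.97) and that of Myc (F = 4.81). No KLF4 comparison with ESC can be separated from batch. The median KLF4 difference over all genes was 0.16 for ESC minus day 3, 0.14 for day 6 minus day 3, -0.05 for day 9 minus day 6, 0.06 for ESC minus day 9 and 0.03 for 2i minus ESC.

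Merging the peaks found in at least 2 libraries of a stage gave 39 H3K27ac regions in the Myc window, 33 in that of Mycn and 37 in that of Mycl. The Mycn window was almost wholly of the ESC kind: 29 of its 33 regions (87.9%) were present in ESC and absent in MEF, against 29.6% of all 106528 regions, 28.2% of those of Myc and 43.2% of those of Mycl. These counts depend on the region rule. With equal numbers of top peaks the regions numbered 9 for Myc, 9 for Mycn and 14 for Mycl, of which 2, 8 and 3 were ESC-only, against 22.3% of all. With a peak in any library they numbered 67, 68 and 52, of which 11, 29 and 16 were ESC-only, against 17.5% of all. The Mycn region count was 53 and 57 without the first and second ESC library, since a stage with 1 library then kept every peak of that library. The Myc window was mixed, with 20 of 39 regions (51.3%) found in MEF and not in ESC, 11 in ESC and not in MEF, and 5 in both. Among all regions 39.4% were MEF-only and 14.9% in both. ESC lists also had peaks over 4 to 6 of the 10 fibroblast genes, beside 4 to 5 in day 6 lists and 5 in day 9 lists. The part of feeder cells in the regions found in both MEF and ESC was not tested. Mycl had 8 MEF-only regions, 5 in both and 6 seen only on a reprogramming day, against 10.2% of all regions. With equal numbers of top peaks the Mycl count of this last class was 6 of 14, against 21.0% of all, and with a peak in any library 14 of 52, against 17.4%. The MEF-only regions of Myc were 6 of 9 (27.1% of all) and 20 of 67 (23.3%) under the same rules.

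The presence of the regions by stage was also traced, under the rule of 2 libraries only. Of the Mycn regions, 0 were present in MEF, 5 on day 3, 6 on day 6, 9 on day 9 and 29 in ESC. Of the Myc regions, 28 were present in MEF, 6 on day 3, 3 on day 6, 7 on day 9 and 16 in ESC, and for Mycl the numbers were 14, 10, 7, 17 and 22. Over all regions the shares were 56.5%, 25.4%, 12.1%, 29.7% and 45.8%, so the dip on day 6 is shared with the whole of the lists, which are shortest there.

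At Mycn the classes lay apart. Of the 29 ESC-only regions of Mycn, 25 lay at coordinates below the gene, which on the minus strand is beyond its 3′ end, 1 over the gene and 3 at higher coordinates, with centres from -149 to 66.7 kb. By mean percentile over the libraries that held a region, the highest among them was one of 2223 bp at chr12:12901561-12903783, centred at -33.4 kb, with a fold of 14.6 and 12.5 in the ESC lists and no peak elsewhere. Within the ESC lists alone other ESC-only regions scored higher, among them the region over Mycn and, named after its values were seen, one of 11168 bp at chr12:12781837-12793004. The latter had a fold of 25.8 and 22.8 in ESC and peaks on days 3, 6 and 9 as well, which lowered its mean percentile. The 3 Mycn regions seen only on reprogramming days clustered at 178 to 186 kb, and the one with the highest mean percentile, over the noncoding RNA gene Gm35298, had a peak in 3 of 3 day 3 lists, 1 of 3 day 6 lists and 1 of 2 day 9 lists.

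At Myc the classes were intermixed, with all 11 ESC-only and 16 of 20 MEF-only regions at higher coordinates than the gene. Of the 39 H3K27ac regions 1 lay at lower coordinates, and 29 overlapped Pvt1. The region with the highest scores among those of MEF and ESC, of 7787 bp at the start of Pvt1 (chr15:62037444-62045230), had a peak in all 12 libraries. Its highest fold was 26.4 and 28.7 in MEF, 12.5, 11.98 and 10.4 on day 3, 4.88, 5.56 and 7.94 on day 6, 20.7 and 22.2 on day 9, and 10.0 and 8.47 in ESC. It stayed in the lists on day 6, when 2 of 3 libraries had none over Myc. The strongest MEF-only region (chr15:62047922-62050660) followed it at 64.0 kb, with a fold of 23.6 and 25.7 in MEF and no peak in any other list. The ESC-only region with the highest mean percentile (chr15:62009423-62010873) lay between Myc and Pvt1 at 24.8 kb, with a fold of 8.81 and 9.63 in ESC. Within the ESC lists alone it was level with a region inside Pvt1 (chr15:62091533-62092963), named after its values were seen, which had a fold of 10.4 and 9.45 in ESC and peaks in both day 9 lists.

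At Mycl, 18 of 37 H3K27ac regions overlapped other coding genes, so the window also counts acetylation over those genes. The strongest region of MEF and ESC lay over Cap1 (chr4:122883648-122887779), which encodes an actin-binding protein, centred at -110 kb, and had a peak in all 12 libraries. The strongest MEF-only region was over Cap1 as well. Both MEF-only and ESC-only regions lay on either side of Mycl. All 4 regions over Mycl were absent in MEF and present in ESC.

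KLF4 regions, merged in the same way, numbered 18 in the Myc window, 16 in that of Mycn and 11 in that of Mycl. Of those of Mycn, 6 were present on day 3, 7 on day 6, 9 on day 9, 13 in ESC and 10 in 2i. The Myc numbers were 8, 3, 3, 8 and 5, and those of Mycl 5, 6, 6, 4 and 4. Over all 37138 KLF4 regions the shares were 48.1%, 40.2%, 51.5%, 43.4% and 40.5%, lower in ESC than on day 3, while the Mycn count was higher.

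The KLF4 region of Mycn with the highest mean percentile was at chr12:12787702-12789063, centred at -148 kb. It had no peak in any day 3, day 6 or day 9 list, and in ESC its fold was 23.1 and 13.3 and in 2i 14.0 and 7.37, at the 98.1 to 99.95 percentile of the scores in those lists. A little farther out, at chr12:12784104-12784707, a region with KLF4 at every stage had folds of 9.47 and 7.72 on day 3, 8.15 and 10.2 on day 6, 10.7 and 10.1 on day 9, 4.92 and 4.79 in ESC, and 5.34 and 7.17 in 2i. Thus neighbouring regions of the same stretch differed in when KLF4 was found. In all, 3 Mycn regions had KLF4 on days 3, 6 and 9 and in ESC in serum, 1 of them with no peak in 2i, and 7 had it in ESC and not on day 3 (43.8% of 16, against 15.6% of all KLF4 regions). The former class held 15.3% of all KLF4 regions, near its 18.8% at Mycn. At Myc, 6 of 18 were of the latter class and none was of the former, and at Mycl 1 of 11 and 3 of 11.

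KLF4 and acetylation were then set side by side. Of the 6 Mycn regions with KLF4 on day 3, 0 overlapped an H3K27ac region present in MEF, 1 one present on day 3, 4 on day 6, 5 on day 9 and 5 in ESC. For all 17870 KLF4 regions of day 3 the shares were 54.5%, 66.1%, 47.5%, 73.7% and 56.1%. At Myc, 6 of 8 such regions were acetylated in MEF, 6 on day 3, 1 on day 6, 6 on day 9 and 5 in ESC, and at Mycl 1, 3, 2, 3 and 3 of 5. Of the 6 Myc regions acetylated in MEF, 4 overlapped the wide MEF peak, 3 of them over the gene itself and 1 before it, and of the 4 regions away from that peak 2 were acetylated in MEF. By a peak in any 1 list of the stage instead of a merged region, the Myc counts were 6 in MEF, 5 on day 3, 3 on day 6, 3 on day 9 and 5 in ESC, so the day 9 count of 6 includes places with no day 9 peak on them. The Mycn count on day 3 depends on asking for 2 libraries: with a peak in any 1 day 3 list it was 3 of 6, and that of Mycl 5 of 5, against 69.7% of all. Regions of one window are not independent, and no test was made. In ESC, 12 of 13 KLF4 regions of Mycn, 6 of 8 of Myc and 4 of 4 of Mycl were acetylated, against 77.3% of all.

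The genes that act with the family were read from a list of 50. For H3K27ac, 27 were higher and 4 lower in ESC than in MEF, with a median difference of 0.56 beside 0.33 over all genes, of which 41.9% were called higher and 18.3% lower. Among 11 partners and antagonists 4 were higher and 1 lower, among 9 genes for MYC stability 7 and 0, among 10 cofactors 4 and 0, and among 20 targets 12 and 3. The windows of Usp28, a deubiquitinase that stabilises MYC, and Cdkn1a, a cell cycle inhibitor repressed by MYC, rose by 2.27 ± 0.158 and 2.16 ± 0.162. Ruvbl2, an ATPase cofactor, rose by 1.78 ± 0.184, Max, the dimer partner, by 1.47 ± 0.331, and Aurka, a kinase that protects MYCN from degradation, by 1.45 ± 0.174. The lower genes were the nucleolar Npm1 (-0.97 ± 0.222), the MAX-like Mlx (-0.91 ± 0.158), the cap-binding Eif4e (-0.84 ± 0.296) and the small nucleolar RNA protein gene Gar1 (-0.72 ± 0.258).

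For KLF4, 10 of the 50 were higher and 2 lower in ESC than on day 3, with a median of 0.25 beside 0.16. Over all genes 16.1% were called higher and 7.18% lower, so the counts of the list lie near the background. By window density, Zbtb17, which encodes the MYC partner MIZ1, rose by 1.34 ± 0.191 and Mxd3, a MAX-binding antagonist, by 1.22 ± 0.233. Mga, another MAX partner, rose by 1.03 ± 0.271 and Ruvbl2 by 0.99 ± 0.191. Over Zbtb17 itself, KLF4 peaks were in 1 of 2 day 3 libraries and 0 of 2 ESC libraries, the opposite direction to its window. Over Mga they were in 1 of 2 and 2 of 2. The lower genes were Usp28 (-1.23 ± 0.265) and the cyclin gene Ccnd2 (-0.77 ± 0.219). Usp28 was thus called in opposite directions for the marks, in comparisons with different starting stages. Most of the list carried H3K27ac over the gene throughout, 49 of 50 in MEF, 48 on day 3, 46 on day 6, 49 on day 9 and 50 in ESC, against 66.3%, 57.5%, 49.3%, 63.5% and 65.9% of all coding genes. Mycn and Mycl had none in MEF.

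Genes on other chromosomes with the density pattern most like that of each member are given as a description over libraries that share stage and list length. For H3K27ac over 12 libraries, Mycn was nearest to Larp7 (Pearson r = 0.968), Qk (0.963) and Ywhaz (0.961), Mycl to Chka (0.957), Cpsf1 (0.953) and Inpp4a (0.950), and Myc to Syt2 (0.893), Aff1 (0.893) and Ets2 (0.892). For KLF4 over 10 libraries, Mycn was nearest to AU018091 (0.933), Qpct (0.932) and Actl10 (0.929), Mycl to Arvcf (0.963), Ky (0.888) and Sptssa (0.881), and Myc to Inpp5d (0.956), Flvcr2 (0.918) and Ptpn13 (0.909). No gene was named for both marks of a member.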

How the data were processed

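H3K27ac and KLF4 ChIP-seq peak lists of 22 libraries were used, and 13 input libraries were not used here. The authors deposited a list per library, without a header, with the score of each peak, its enrichment over background as a ratio (fold), and its p-value and q-value as −log10. The submitters' processing notes name cutadapt 1.8.1, Bowtie2 2.2.5, MACS2 2.1.1, deepTools 2.3.6 and mm10, with no role or setting. Score, fold and q are the authors' and served for description, ranking and filters. Folds of different lists are set side by side without a test, and regions were ranked by the percentile of the score within each list, averaged over lists. Depth is unknown, so precision comes from the spread over 2 or 3 libraries.

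Gene coordinates and names came from a RefSeq table of GRCm38.p6, the assembly of mm10, and promoters from RefSeq on the same build. Peaks on chromosomes 1 to 19 and X overlapping a gene with 200 kb to each side were counted per 10000 peaks of the list, and log2(value + 0.5) was fitted with limma 3.58.1 (R 4.3.3; moderated, trend) on stage, over 20201 (H3K27ac) or 19310 (KLF4) coding genes with at least 10 peaks in all. P-values were adjusted by Benjamini-Hochberg over all genes within a comparison, two-sided, and called under 0.05. The SE is that of the fit. The script was tested on simulated data.

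Regions were merged peaks found in at least 2 libraries of a stage, overlapping by at least 1 bp. A region was present at a stage with 2 libraries and absent with 0. Named were the members, every region over them, the region with the highest mean score percentile of each class, up to 5 called list genes in each direction (1 of them is not reported here), and the 3 genes most alike in density. Members, lists and tests were chosen with earlier results of these data known. Alternatives were other pseudocounts, no filter, equal numbers of top peaks, a q-value limit of 0.01, covered length, windows of 100 and 50 kb, blocks for batch and replicate number, other region rules, and leaving out each library. The exchanged day 6 numbers, the classes under other region rules and the count of KLF4 regions by H3K27ac peaks in any library were added after seeing the data. Myc's promoter was not used here.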

Additional observations from a re-analysis of the deposited data

How the results depend on the processing

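Over 36 density results, 696 alternatives kept the direction and the side of the threshold, 43 lost a call, 8 gained one and 3 turned it. The Mycn difference between ESC and MEF stayed called under all, at 2.76 to 5.57. No depth is known, groups hold 2 or 3 libraries, and where a library is left out of a pair the lone one is assumed to vary like the rest. Causes of the changes were not tested.

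For H3K27ac, with equal numbers of top peaks, day 3 minus MEF was -1.54 for Myc (called), -0.039 for Mycl (turned) and 0.94 for Mycn (lost), ESC minus MEF was 0.23 for Mycl (lost), and ESC minus day 9 was 0.60 for Myc and 0.58 for Mycn (both lost). By covered length Myc was called at -0.53 for ESC minus MEF (turned), -0.70 for day 3 minus MEF and -0.38 for day 9 minus day 6, and Mycl at 0.42 for day 9 minus day 6 (turned) and -0.56 for ESC minus day 9. Windows of 100 kb lost Mycn at day 3 minus MEF (0.67) and ESC minus day 9 (0.69), Mycl at day 6 minus day 3 (0.24), and Myc at ESC minus day 9 (0.75) and in the F test (1.65). Windows of 50 kb lost Mycl (0.46) and Mycn (0.67) at day 3 minus MEF, Mycl at day 6 minus day 3 (0.76) and Mycn at ESC minus day 9 (0.43), and called Myc at day 9 minus day 6 (-0.79). A pseudocount of 0.1 lost Mycn (0.88), and a q-value limit of 0.01 (0.81) and a batch block (0.64) lost Myc, at ESC minus day 9. For KLF4, windows of 100 kb called Myc at day 6 minus day 3 (-1.56). The q-value limit lost Myc at ESC minus day 9 (2.15) and the F of Myc (4.81) and Mycn (3.97), and no filter lost the F of Mycn (5.59).

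In batch DG-3458 libraries of 4 H3K27ac stages share the numbers 1 and 2. Deviations of same-numbered libraries correlated only at -0.008 to 0.053, so no shared deviation was seen. Whether such libraries share a culture or mouse cannot be told from this. The replicate block lost Mycl at day 3 minus MEF (0.43) and Myc at ESC minus day 9 (0.84), as did the block after exchanging the day 6 numbers to match the names of the peaks (0.43 and 0.84), which also lost the F of Myc (3.49). It changed no other call. No paired analysis was possible for KLF4 contrasts with ESC because its batches hold no other stage.

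Leaving out a library gave -0.55 to -0.33 for Myc and 0.39 to 0.69 for Mycl at H3K27ac day 3 minus MEF, and 0.57 to 0.97 for Myc and 0.72 to 0.91 for Mycn at ESC minus day 9. For KLF4 it gave 0.75 to 1.37 for Mycn at ESC minus day 3, 0.89 to 1.19 for Myc at ESC minus day 9, and an F of 3.53 to 6.70 for Mycn. The Mycn H3K27ac regions numbered 31 to 57.

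Regions from any library numbered 67 at Myc and 68 at Mycn for H3K27ac, and 28 at Mycl for KLF4. With equal numbers of top peaks the H3K27ac counts were 9 for Myc, 9 for Mycn and 14 for Mycl, and the KLF4 count of Myc was 11. The q-value limit left 4 KLF4 regions at Myc and 5 at Mycl.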
